A study of Mus musculus with 42 samples.

Results

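The collagen chains are the 42 genes whose symbol has the form Col, a number, the letter a and a number, and whose probe sets name that gene alone. They were measured by 82 of the 45037 probe sets on the array, against 18193 genes named by a single-gene probe set in all. RefSeq lists 44 such genes for the mouse, and *Col6a6* and *Col28a1* had no such probe set. The chains were ordered by type, as 11 fibrillar genes (21 probe sets), 8 basement membrane genes (15 probe sets) and 23 others (46 probe sets).

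RNA came from the liver, brown adipose tissue (BAT) and white adipose tissue (WAT) of male ddY mice, an outbred strain, which were 5 weeks old and were acclimated for 1 week. In each tissue 7 mice had been given VAAM, a mixture of amino acids that copies the saliva of hornet larvae (*Vespa*), and 7 had been given water. Both were given by feeding tube once a day, 5 times, at 37.5 μL per g of body weight, VAAM as a 1.8% solution, and the mice were killed 4 h after the last administration. Tissues of the same mice were used, the WAT depot is not given in the sources used here, and 1 array was hybridised per mouse and tissue, 42 arrays in all.

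A collagen is built from 3 chains wound into a triple helix. The fibrillar types (I, II, III, V, XI, XXIV and XXVII) pack into the fibres that give tissue its tensile strength, with type I made of *Col1a1* and *Col1a2* chains, type III of *Col3a1*, and type V regulating fibril width. Type IV forms the network of basement membranes, which surround every adipocyte and line blood vessels. The others include type VI, a beaded filament around fat cells, the types that bind to the surface of fibrils (IX, XII, XIV, XVI, XIX, XX and XXII), and those that span the cell membrane (XIII, XVII, XXIII and XXV). Fibroblasts and their relatives make most fibrillar collagen, adipocytes also make types IV and VI, and in healthy liver collagen is sparse and comes from stellate and portal cells.

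The deposited values are summaries on a log scale, read as log2 although their base is not given, in which the deviations between arrays were compressed by an amount that differs between probe sets. The median SD of a probe set was 1.08e-05 in liver, 1.06e-05 in BAT and 1.41e-05 in WAT, so a difference of these values is no fold change. Differences between groups are therefore given in units of the pooled SD of the groups, VAAM less water, ± the standard error. Their p comes from an exact permutation test, two-sided, which takes all 3432 ways to divide 14 mice into 7 and 7 and can give no p below 0.000583. The number of arrays limits the precision. Levels are given as percentiles, the rank of a probe set's mean over the 14 arrays of a tissue among all 45037 probe sets. Since a probe set's brightness depends on its sequence, chains were compared between tissues only by the percentiles of the same probe set. Cell type markers were read from the brightest probe set in each tissue, which can differ between tissues. In bulk tissue, fewer cells of a type and less RNA per cell cannot be told apart. 4 arrays stood apart on the leading components of their tissue, those of VAAM mouse 6 in liver, VAAM mice 3 and 5 in BAT and VAAM mouse 1 in WAT, and values without them are given beside the results of BAT and WAT. The tissue labels were borne out by their markers, with hepatocyte markers at a median percentile of 100 (rounded) in liver, 47.4 in BAT and 51.5 in WAT, and brown adipocyte markers at 39.8, 99.8 and 46.5 in the same order. *Ucp1*, the uncoupling protein that defines brown fat, stood at the percentile 30.1 in liver, 100 (rounded) in BAT and 24.1 in WAT.

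The first question was where the chains stood in the 3 tissues. WAT was the highest tissue for 23 of the 42 chains (54.8%, against 30.5% of all genes), liver for 15 (35.7%, against 36.9%) and BAT for 4 (9.52%, against 32.6%), and the main chains of types I, III, IV, V and VI were all among those highest in WAT. Of the 42 genes, 1 was above the 90th percentile in liver (2.38%), 8 in BAT (19%) and 12 in WAT (28.6%), against 16.2%, 16.2% and 16% of all genes. The rising order liver, BAT, WAT was seen in 19 of 42 chains (45.2%), against 19.7% of all genes. Of the 19 chains above the 75th percentile in 1 tissue or more, 16 were highest in WAT (84.2%, against 34.2% of all such genes). BAT was the highest tissue for 2 of them (10.5%, against 33.2%) and liver for 1 (5.26%, against 32.7%). These counts are descriptions without a test. With limma in the water mice, all 82 collagen probe sets passed an adjusted p of 0.05 between liver and WAT, between BAT and WAT and between liver and BAT, but so did 99.8%, 99.8% and 99.9% of all probe sets, and nothing is read from those calls. The collagen probe sets split into 29 higher and 53 lower in liver against WAT (37.2% and 62.6% of all), 23 and 59 in BAT against WAT (36.9% and 62.8%), and 31 and 51 in liver against BAT (44.4% and 55.5%). The median of an array lay between 6.7294 and 6.7297 in liver, 6.7739 and 6.7754 in BAT, and 6.9076 and 6.9133 in WAT, so the tissues appear to have been summarised apart, each with an offset of its own, which the sources used here do not state.

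Among the fibrillar chains, *Col3a1* was at the 89.3rd percentile in liver, the 99.5th in BAT and the 100th (rounded) in WAT. Its mean was 8.95 in VAAM livers and 8.95 in water livers, 12.93 and 12.93 in BAT, and 13.91 and 13.91 in WAT, with an SD between water mice of 0.00226, 0.00152 and 1.26e-05 in the same tissues. *Col1a2*, the second chain of type I, followed the same order (84.9, 98.9 and 99.8), and the other chain, *Col1a1*, stood at 48.8 in liver, 89.6 in BAT and 93.1 in WAT. The type V chain *Col5a2* stood at 58.5, 95.7 and 98.4, *Col5a1* at 66.3, 88.7 and 95.6, and *Col5a3* at 71.9, 82.6 and 90.8. All 6 of these chains stood highest in WAT. The exception among the brighter fibrillar chains was *Col27a1*, a chain of cartilage and other tissues, at 81.7 in liver, 85.2 in BAT and 72.1 in WAT. The cartilage chains *Col2a1* (47.5, 42.7 and 27.4) and *Col11a1* (18.7, 13 and 10.1), *Col11a2* (39.5, 44.2 and 46.1) and *Col24a1* (20.5, 1.63 and 5.34) lay below the median in every tissue.

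Of the basement membrane chains, *Col4a1* was at the 74.3rd percentile in liver, the 98.2nd in BAT and the 99.3rd in WAT, and its partner *Col4a2* was at 80.6, 97.6 and 98.9. These 2 chains make the type IV network of most basement membranes. The chains found in more restricted membranes also stood highest in WAT, with *Col4a5* at 33.8, 66.7 and 87.6, *Col4a4* at 33.4, 44.7 and 75.9, and *Col4a3* at 27, 31.5 and 49.2, whereas *Col4a6* stood at 64.8, 47.4 and 56.1. *Col15a1*, a proteoglycan collagen of the outer face of basement membranes, was at 56.5, 70 and 85.1. *Col18a1*, the source of endostatin and known to be made by hepatocytes, was the opposite case, at 97.9 in liver, 69.4 in BAT and 86.5 in WAT, and was the only one of 42 chains above the 90th percentile in liver.

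Among the other chains, the 3 main type VI genes stood together. *Col6a3* was at 64.3 in liver, 96.2 in BAT and 98.6 in WAT, *Col6a2* at 70.5, 95.3 and 98.7, and *Col6a1* at 60.3, 91.7 and 96.8. The later type VI genes *Col6a4* (42.5, 38.3 and 41.4) and *Col6a5* (6.8, 2.79 and 4.52) were below the median throughout. *Col14a1*, which binds the surface of fibrils, was at 84.1, 81.7 and 92.9. *Col8a1*, a network chain of vessel walls, was at 29.5, 72.7 and 83.1, and its partner *Col8a2* at 24.8, 3.95 and 45.4. BAT was the highest tissue for *Col12a1*, another fibril-binding chain, at 25.5, 79.4 and 54. Liver was the highest for the membrane-spanning chain *Col13a1*, at 74.2, 37.6 and 31.1, which was the largest shift of any chain towards liver from WAT. The largest shifts away from liver were those of *Col12a1* against BAT and of *Col4a5* and *Col8a1* against WAT. Chains that are typical of cartilage or skin, such as *Col9a2* (53.2, 48.7 and 24.4), *Col10a1* (28.3, 17.8 and 16.6) and *Col17a1* (18.6, 17 and 19.2), were not bright in any tissue.

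**Figure D1:**
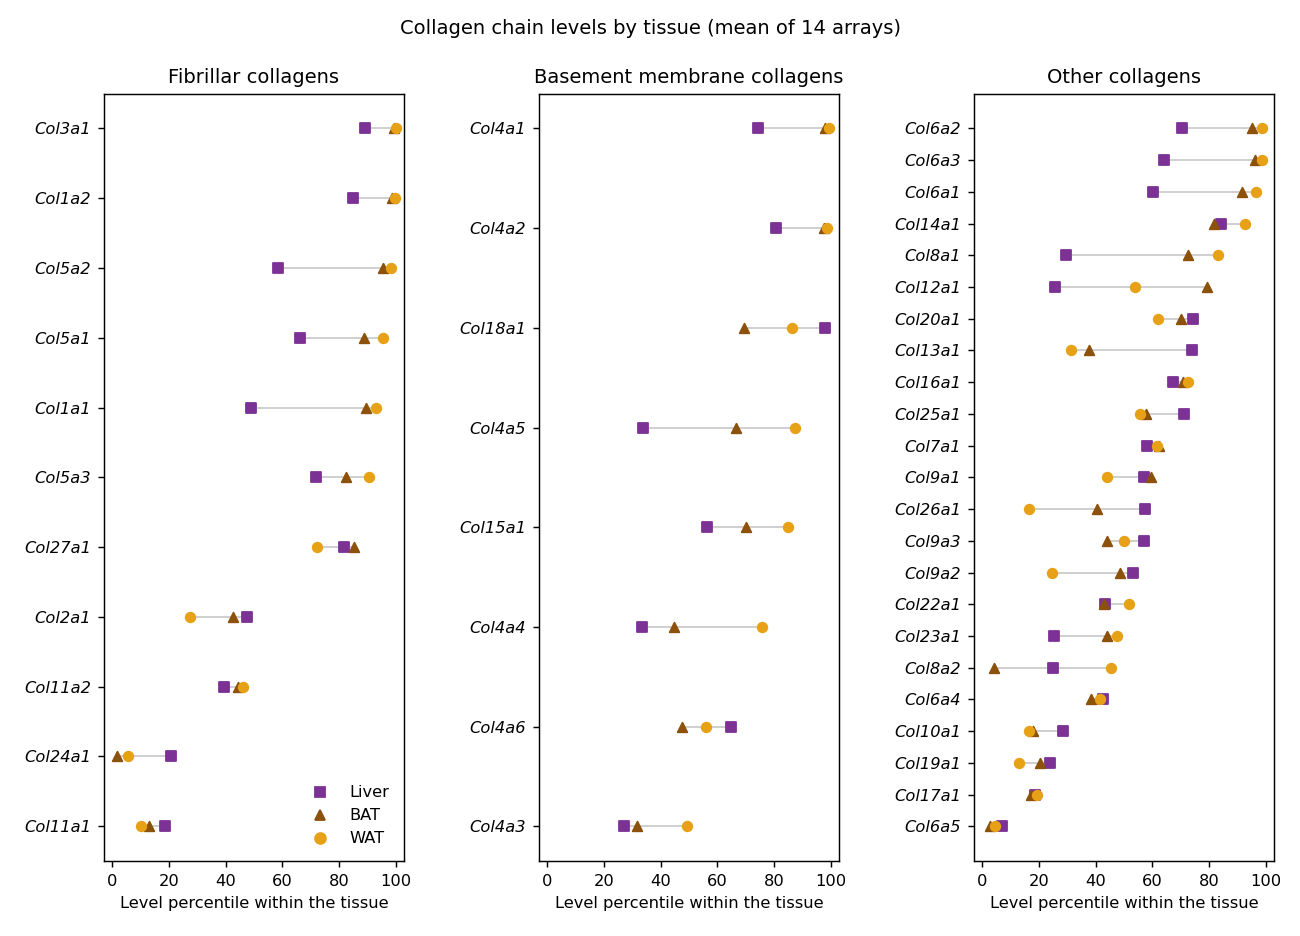
Level percentile of each of the 42 collagen genes in liver (squares), BAT (triangles) and WAT (circles), by type. The horizontal axis is the rank of the probe set among all probe sets of that tissue in percent, over the mean of 14 arrays. Fibrillar, type IV and type VI chains on the upper rows lie at the left in liver and at the right in BAT and WAT, and *Col18a1* is the one chain near the right end in liver (97.9).

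Fibroblast markers followed the same order of tissues. Of 7 such markers, 1 was above the 90th percentile in liver, 2 in BAT and 6 in WAT, with medians of 61.4, 85.7 and 95.1. The 5 hepatic stellate cell markers had medians of 69.7, 39.6 and 55.8 in the same tissues. WAT also held RNA of the epididymis, the organ next to one fat depot of male mice, with 2 of 6 such markers above the 90th percentile there, and BAT held RNA of skeletal muscle, with 2 of 5 markers above the 90th percentile. Endothelial markers were more alike, at medians of 71.8, 87 and 84.6. The part of these cells in the collagen levels was not tested.

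The second question was how far the chains varied between mice of 1 group. Among the 10% of all probe sets that varied most, by within-group SD, were 7 of 42 collagen genes in liver (16.7%), 12 in BAT (28.6%) and 12 in WAT (28.6%), against 12.2%, 10.6% and 13.5% of all genes. In BAT, 6 of 11 fibrillar genes were among them (54.5%), and the count was 6 in the VAAM mice alone, 6 in the water mice alone and 6 without the 2 arrays that stood apart. *Col1a1* was at the 99.1st percentile of within-group SD in BAT, *Col6a3* at the 98.8th, *Col5a1* at the 98.7th, *Col1a2* at the 98.4th, and *Col3a1* at the 96.3rd. Of the 8 collagen genes above the 90th level percentile in BAT, 7 were in the most variable 10% (87.5%), against 444 of 2964 genes that bright (15%). In WAT, where the same chains were brighter still, *Col1a1* was at the 93.8th percentile of SD, *Col5a1* at the 86.4th, *Col6a3* at the 85.6th, *Col6a1* at the 80th, *Col1a2* at the 61.3rd and *Col3a1* at the 54.5th. As the compression of deviations differs between probe sets and tissues, these ranks describe the deposited values.

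**Figure D2:**
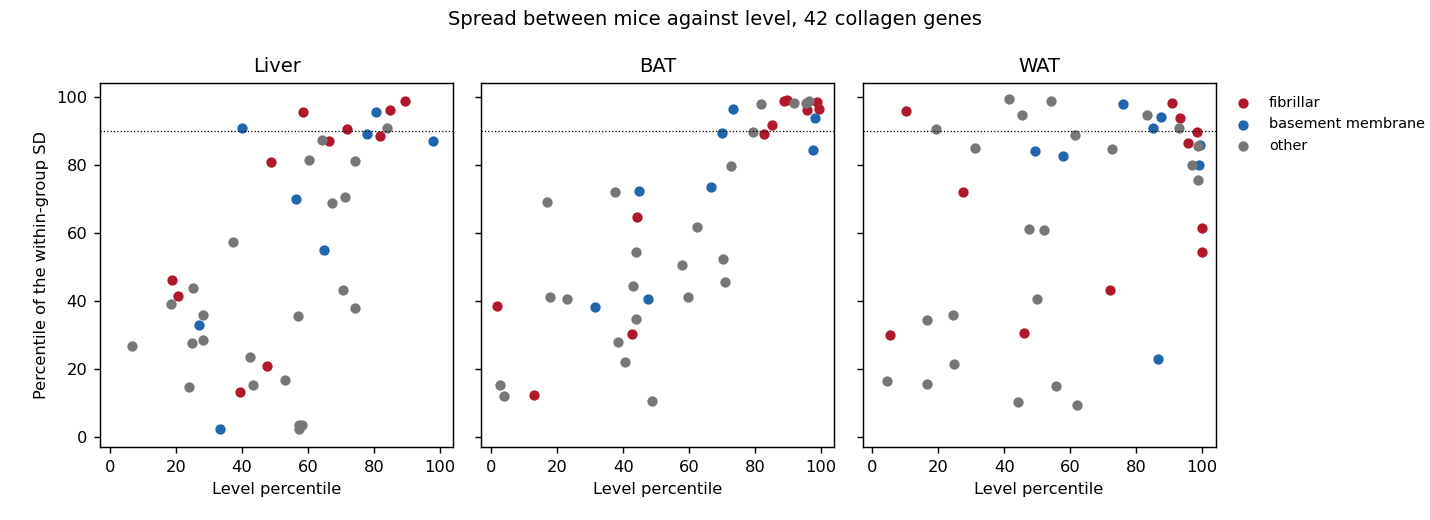
Percentile of the within-group SD (vertical axis) against level percentile (horizontal axis) of the 42 collagen genes in liver, BAT and WAT, coloured by type. The dotted line marks the most variable 10% of all probe sets, which held 7 collagen genes in liver, 12 in BAT and 12 in WAT.

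The third question was what VAAM changed. No collagen probe set passed limma at an adjusted p of 0.05 in any tissue, and no probe set of any gene did (0% of 45037 in each tissue). The smallest adjusted p of a collagen probe set was 0.341 in liver, 0.901 in BAT and 1 in WAT. At an unadjusted p under 0.05, limma gave 0 collagen probe sets higher and 3 lower with VAAM in liver, against 4.17% and 4.92% of all probe sets. It gave 7 higher and 2 lower in BAT, against 2.16% and 2.93%, and 6 higher and 1 lower in WAT, against 1.65% and 2.1%. VAAM and water values overlapped for all 42 genes in all 3 tissues. The share of all genes that overlapped is not given here, so this is not read as a trait of the chains. The difference of the VAAM effect between tissues was tested with limma on values scaled to unit SD, with arrays of the same mice treated as independent. It passed for no collagen probe set between liver and WAT (0.249% of all probe sets passed), BAT and WAT (0.02%) or liver and BAT (0.153%). At an unadjusted p under 0.05 limma gave 6, 10 and 8 collagen probe sets (10.1%, 5.18% and 8.37% of all).

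The median difference of the collagen genes was -0.09 SD in liver, +0.23 in BAT and -0.08 in WAT, against -0.05, 0.02 and 0.00 over all genes. By type, the fibrillar genes had medians of 0.22, 0.38 and -0.27 in liver, BAT and WAT, the basement membrane genes 0.08, 0.23 and -0.27, and the others -0.39, 0.10 and -0.02. In BAT, 27 of 42 chains had a higher mean with VAAM (64.3%, against 51.4% of all genes), including 8 of 11 fibrillar and 7 of 8 basement membrane genes. The BAT median became 0.01 without VAAM mice 3 and 5 and turned to -0.07 after quantile normalisation. That scaling moved the median of all genes to -0.32 SD in liver, -0.21 in BAT and -0.47 in WAT, and the medians of the collagen genes to -0.20, -0.07 and -0.39, so signs after quantile normalisation are relative to those shifts. The liver median was 0.09 among probe sets above the median level.

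**Figure D3:**
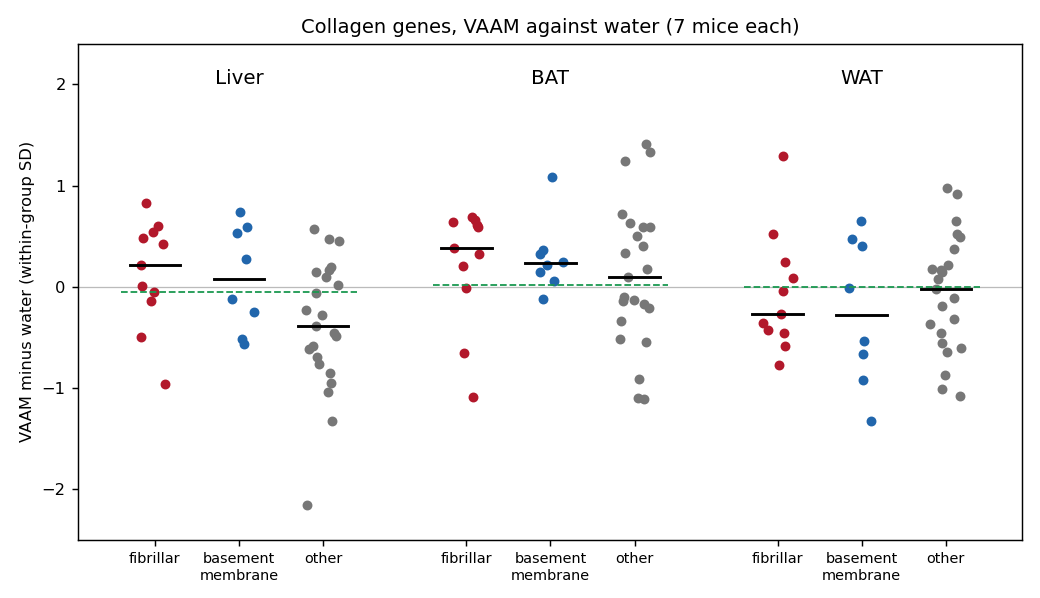
VAAM minus water difference of each collagen gene in within-group SD (vertical axis), by tissue and type, 7 mice per group. Points are genes, black bars are medians of the type and green dashed lines are medians of all genes. The medians of fibrillar chains were 0.22 in liver, 0.38 in BAT and -0.27 in WAT, and no point passed the adjusted test.

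Rank products, the method named in the study's methods, ranks the raw differences and made more calls at a false discovery rate of 0.05. The method set that rate by permuting values among probe sets within each array, and not against the spread between mice. It called 3 collagen probe sets higher and 0 lower with VAAM in liver (2.71% and 1.45% of all probe sets were called), 14 higher and 1 lower in BAT (2.16% and 2.25%), and 4 higher and 2 lower in WAT (2.04% and 1.47%). A probe set can be called in both directions, which no collagen probe set was. Every collagen probe set it called lay in the most variable 10%, as did 95.2%, 96.2% and 97.8% of all called probe sets in liver, BAT and WAT. Within that 10%, rank products called 3 of 12 collagen probe sets in liver (25%), 15 of 22 in BAT (68.2%) and 6 of 17 in WAT (35.3%), against 36.6%, 38.8% and 32.6% of all probe sets there. When each probe set was first scaled to unit SD, it called 0 collagen probe sets higher and 1 lower in liver (0.502% and 0.355% of all probe sets), 1 higher and 1 lower in BAT (0.251% and 0.109%) and 0 in either direction in WAT (0.0866% and 0.0822%). None of the calls on the raw scale was among them.

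In BAT the 14 higher calls belonged to 9 genes, the fibrillar *Col1a1*, *Col1a2*, *Col3a1*, *Col5a1* and *Col5a2*, the type VI *Col6a1*, *Col6a2* and *Col6a3*, and *Col14a1*, and the lower call was *Col27a1*. Of the 2 probe sets of *Col3a1* the dimmer one was called, and the values given for it are those of the brighter. The values of *Col1a1* ranged from 8.9980 to 9.0424 with a median of 9.0267 in VAAM mice, against 9.0007 to 9.0267 with a median of 9.0127 in water mice. VAAM mice thus reached both below and above the water mice, and 5 of 7 exceeded the water median (+0.69 ± 0.55 SD, exact p = 0.223). *Col1a2* ranged from 12.13794 to 12.15389 (median 12.14614) in VAAM mice, against 12.13334 to 12.14793 (median 12.14400) in water mice (+0.61 ± 0.547 SD, exact p = 0.277). *Col3a1* ranged from 12.92816 to 12.93260 (median 12.92968) in VAAM mice, against 12.92636 to 12.93083 (median 12.92937) in water mice (+0.66 ± 0.549 SD, exact p = 0.247). Without VAAM mice 3 and 5 the differences were 0.55 SD for *Col1a1*, 0.46 for *Col1a2* and 0.49 for *Col3a1*, and after quantile normalisation 0.66, 0.35 and 0.00. The extremes often fell in the same mice. The share over all genes that bright was not counted, so this is not read as a trait of the chains. Of 14 collagen genes above the 75th level percentile in BAT, 10 had their highest VAAM value in VAAM mouse 3 and 9 their lowest in VAAM mouse 2, and among water mice 10 were highest in mouse 6 and 9 lowest in mouse 4.

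The type VI chain *Col6a1* ranged from 9.32907 to 9.34548 (median 9.33590) in VAAM mice, against 9.32999 to 9.34078 (median 9.33366) in water mice (+0.40 ± 0.54 SD, exact p = 0.478). Without VAAM mice 3 and 5 its difference was -0.01 SD. Rank products then called 5 collagen probe sets in BAT, all among the 15, of the genes *Col1a1*, *Col1a2* and *Col3a1*. Of all probe sets, 517 were then called higher and 1021 lower, against 975 and 1013 with every array. Without VAAM mouse 3 alone the collagen count was 8 (711 higher and 998 lower of all probe sets). It was 9 each without VAAM mouse 4 (702 and 1119 of all) or VAAM mouse 7 (587 and 942). A score was the mean over a list's genes of the deviation, in SD, from the tissue's mean over VAAM and water mice together. In BAT the fibroblast marker score, over 7 markers, ranged from -0.77 to 1.42 in VAAM mice, against -1.79 to 0.78 in water mice. It stood at 1.27 in VAAM mouse 3, where the macrophage score was 1.48, and at -1.79 in water mouse 4. The adipocyte score ranged from 0.13 to 1.14 in VAAM mice, against -1.22 to 0.37 in water mice. The markers of skeletal muscle had a mean level of 6.8311 to 11.6459 in VAAM mice, against 6.9608 to 11.8995 in water mice, and 7.0297 in VAAM mouse 3. The part of these cells in the collagen values was not tested.

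Of the basement membrane chains of BAT, *Col4a4* had the largest difference, at +1.09 ± 0.573 SD (exact p = 0.0647). *Col4a1* ranged from 11.403455 to 11.405818 (median 11.404058) in VAAM mice, against 11.403545 to 11.404641 (median 11.403933) in water mice (+0.36 ± 0.539 SD, exact p = 0.564), with the highest value in VAAM mouse 3, without which the difference was -0.09 SD. *Col4a2* differed by +0.25 ± 0.537 SD (exact p = 0.678), *Col15a1* by +0.32 ± 0.538 (exact p = 0.63) and *Col18a1* by +0.15 ± 0.535 (exact p = 0.829). Without VAAM mice 3 and 5 the differences were 0.02 SD for *Col4a1*, -0.20 for *Col4a2*, -0.06 for *Col15a1* and -0.58 for *Col18a1*. The chains with the highest differences in BAT were of other types. *Col7a1*, the anchoring fibril chain of skin, had +1.41 ± 0.597 SD (higher than the water median in 6 of 7 mice, exact p = 0.0216), *Col9a3* of cartilage +1.33 ± 0.59 (exact p = 0.028) and *Col19a1* +1.24 ± 0.583 (exact p = 0.0373). At the other end stood *Col10a1*, the hypertrophic cartilage chain, at -1.11 ± 0.574 (exact p = 0.0589), *Col9a2* at -1.10 ± 0.573 (exact p = 0.0501) and *Col27a1* at -1.09 ± 0.573 (exact p = 0.0635). All had a limma adjusted p of 0.93 or more. After quantile normalisation *Col7a1* and *Col9a3* were at -0.06 SD each, *Col19a1* at -0.16, *Col10a1* at -0.20, *Col9a2* at -0.04 and *Col27a1* at -0.66. Among second probe sets, the largest values were -2.39 SD for one of *Col8a1* (exact p = 0.00117) and +2.06 for one of *Col20a1* (exact p = 0.00583), both called by rank products on the unit SD scale and both with an adjusted limma p of 0.901.

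In liver the rank product calls were *Col1a2*, *Col3a1* and 1 of 2 probe sets of *Col4a1*. *Col3a1* ranged from 8.95050 to 8.95749 (median 8.95339) in VAAM mice, against 8.94966 to 8.95587 (median 8.95178) in water mice (+0.60 ± 0.546 SD, exact p = 0.281). *Col1a2* ranged from 8.439955 to 8.441407 (median 8.440494) in VAAM mice, against 8.439711 to 8.440735 (median 8.440182) in water mice, and 6 of 7 VAAM mice exceeded the water median (+0.83 ± 0.557 SD, exact p = 0.144). The highest mouse was VAAM mouse 1 for both. The count of 3 became 5 without water mouse 2, where calls over all probe sets went from 1219 to 1319 higher and from 651 to 530 lower. The brighter *Col4a1* probe set differed by +0.74 ± 0.553 SD (exact p = 0.191) and *Col4a2* by +0.53 ± 0.544 (exact p = 0.344). *Col1a1* went the other way, at -0.50 ± 0.543 SD (exact p = 0.366), but the mean of its 2 probe sets gave +0.13, so its direction is not settled. *Col6a1* (+0.15 ± 0.535), *Col15a1* (-0.57 ± 0.545) and the bright *Col18a1* (+0.27 ± 0.537, exact p = 0.622) had differences near their standard error or below it. *Col18a1* ranged from 11.3581087 to 11.3582773 in VAAM livers, against 11.3580762 to 11.3582537 in water livers.

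The strongest difference of liver was in *Col9a2*, a chain of the cartilage collagen IX, which was at the 53.2nd level percentile. It ranged from 6.7968349 to 6.7968479 (median 6.7968436) in VAAM mice, against 6.7968474 to 6.7968570 (median 6.7968509) in water mice. The highest VAAM value lay just above the lowest water value, and 0 of 7 VAAM mice exceeded the water median (-2.16 ± 0.673 SD, exact p = 0.00175, limma adjusted p = 0.341). After quantile normalisation the difference was -0.04 SD, above the median of all genes on that scale (-0.32). Of the other type IX genes, *Col9a1* stood at -1.33 ± 0.591 SD (exact p = 0.0326; -0.50 after quantile normalisation), and the probe sets of *Col9a3* differed in sign, with the lowest at -1.51 (exact p = 0.0181). *Col17a1*, the hemidesmosome chain, had -1.04 ± 0.57 SD (exact p = 0.0839). The SD of *Col9a2* was at the 16.8th percentile of all probe sets and that of *Col9a1* at the 2.48th, and rank products called *Col9a2* lower on the unit SD scale alone. In liver the stellate cell score was between -1.80 and 1.37 in VAAM mice, against -0.58 to 0.33 in water mice, with the highest value in VAAM mouse 1, which was also highest for 4 of the 7 collagen genes above the 75th level percentile. The share of all genes that bright with their highest VAAM value in that mouse was not counted. Cartilage markers in liver had percentiles of 16.5 to 43.

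In WAT 24 of 42 chains had a lower mean with VAAM, 7 of 11 fibrillar and 5 of 8 basement membrane genes among them, and none passed the test. *Col3a1* ranged from 13.9090373 to 13.9090959 (median 13.9090855) in VAAM mice, against 13.9090833 to 13.9091146 (median 13.9090925) in water mice (-0.77 ± 0.554 SD, exact p = 0.181). The lowest value was that of VAAM mouse 1. *Col6a1* ranged from 10.8249013 to 10.8252546 (median 10.8251497) in VAAM mice, against 10.8251348 to 10.8253314 (median 10.8252507) in water mice (-1.01 ± 0.567 SD, exact p = 0.0693). *Col18a1* had the lowest difference, -1.33 ± 0.591 SD (exact p = 0.0326, limma adjusted p = 1), followed by *Col14a1* (-1.08 ± 0.572, exact p = 0.0659) and *Col15a1* (-0.92 ± 0.562, exact p = 0.111). *Col4a1* differed by -0.66 ± 0.549 SD (exact p = 0.26) and *Col4a2* by -0.54 ± 0.544 (exact p = 0.378). Without VAAM mouse 1 the differences were -0.56 SD for *Col3a1*, -0.87 for *Col6a1*, -1.17 for *Col18a1*, -0.91 for *Col14a1*, -0.72 for *Col15a1*, -0.37 for *Col4a1* and -0.18 for *Col4a2*. After quantile normalisation they lay between -0.05 for *Col4a2* and -0.54 for *Col3a1*, against -0.47 over all genes. For the type I chains the values were +0.09 ± 0.535 SD for *Col1a1* (exact p = 0.869; -0.03 without VAAM mouse 1 and -0.17 after quantile normalisation) and +0.25 ± 0.537 for *Col1a2* (exact p = 0.656; -0.49 after quantile normalisation). The highest were *Col27a1* (+1.29 ± 0.587, exact p = 0.0309), *Col13a1* (+0.98 ± 0.566, higher than the water median in 7 of 7 mice, exact p = 0.0932) and *Col25a1* (+0.92 ± 0.562, exact p = 0.109), which quantile normalisation put at -0.46, -0.83 and -0.65 SD in the same order.

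VAAM mouse 1 had the lowest VAAM value in WAT for 11 of the 17 collagen genes above the 75th level percentile, which included *Col3a1*, *Col4a1*, *Col4a2*, *Col6a1* and *Col15a1*. The share of all genes that bright with their lowest VAAM value there was not counted. The array of VAAM mouse 1 was lowest in the adipocyte (-2.59 SD), endothelial (-2.66) and fibroblast (-2.17) marker scores and highest in the epididymis score (2.41). The 6 epididymis markers had a mean level of 7.7785 to 13.3389 in VAAM mice, against 7.1074 to 11.8207 in water mice, with VAAM mouse 1 and water mouse 1 at the upper ends. *Col6a4* followed the same mice. It was 6.889 in VAAM mouse 1 and 6.887 in water mouse 1, against 6.657 to 6.680 in the other VAAM mice and 6.643 to 6.733 in the other water mice. Rank products called this probe set higher in WAT although the group means differed by -0.02 ± 0.535 SD (exact p = 0.976). Its level in BAT, where epididymis markers had percentiles of 11.6 to 44.6, was 6.555 in every mouse. The other calls in WAT were single probe sets of *Col1a2*, *Col4a4* and *Col11a1* (higher) and of *Col5a3* and *Col14a1* (lower), and without VAAM mouse 1 the calls of *Col1a2*, *Col5a3*, *Col6a4* and *Col14a1* remained. The count of 6 became 3 without VAAM mouse 4, where calls over all probe sets went from 917 to 643 higher and from 664 to 674 lower. The part of epididymal RNA in these values was not tested.

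**Figure D4:**
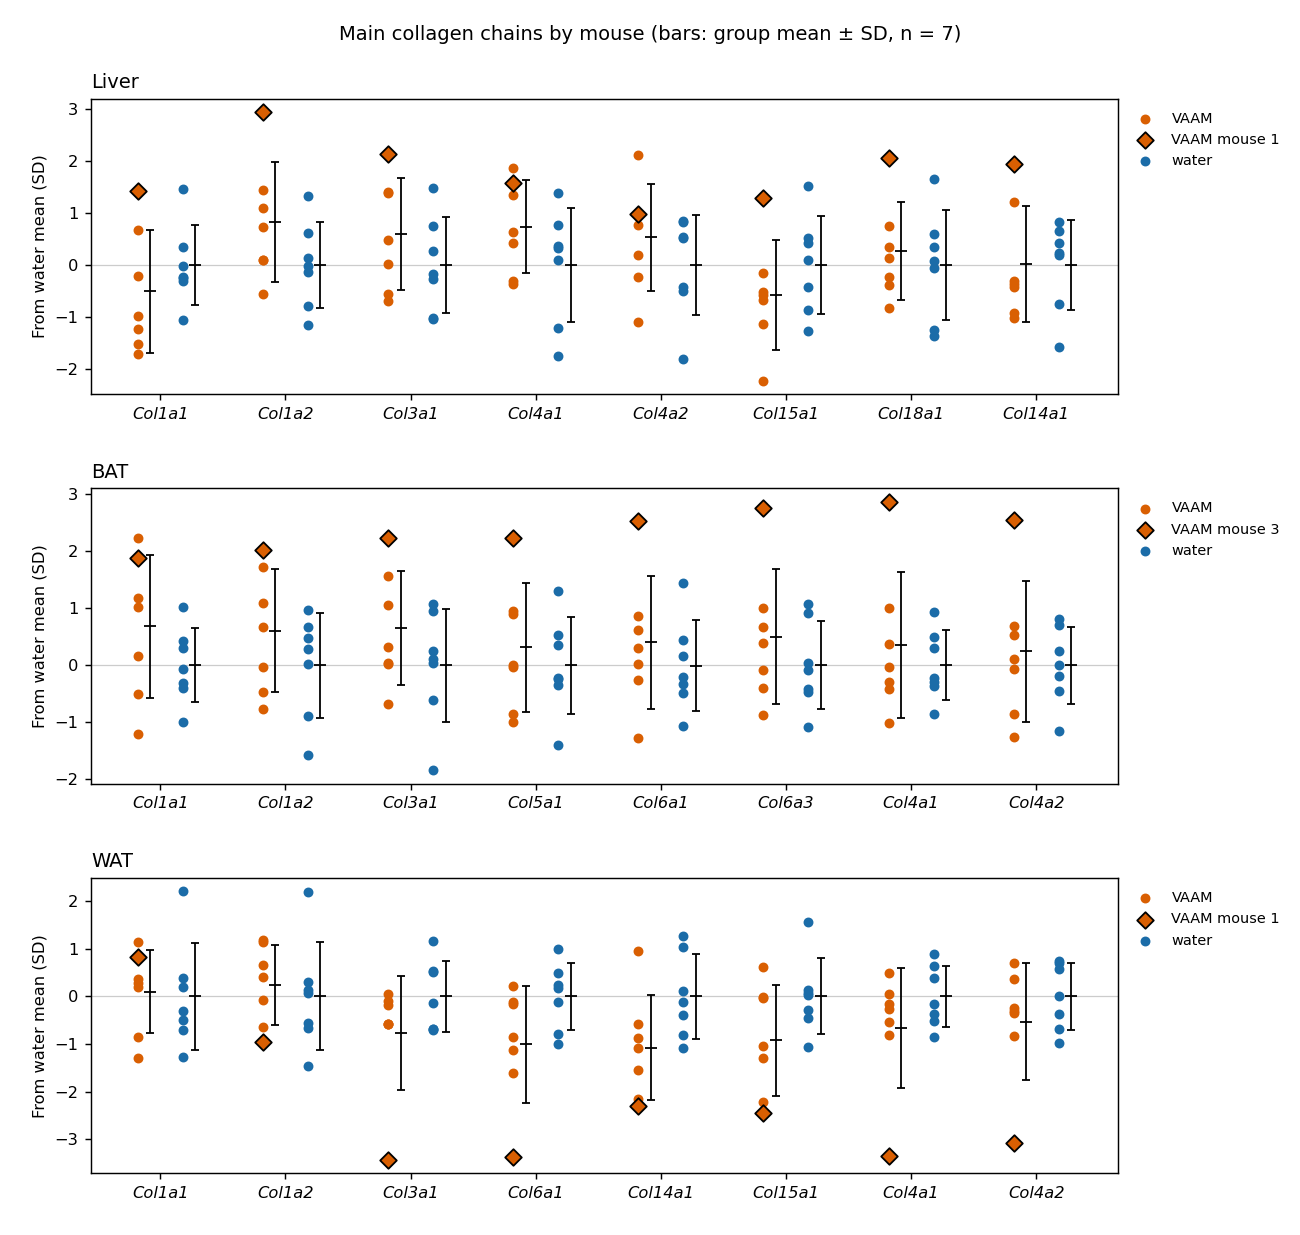
Values of 8 collagen genes per tissue in each mouse, as deviation from the water mean in within-group SD (vertical axis), VAAM mice in orange at the left of each pair and water mice in blue at the right. Black bars are the group mean ± SD (n = 7), and diamonds mark VAAM mouse 1 in liver, VAAM mouse 3 in BAT and VAAM mouse 1 in WAT. The diamonds lie at the top for most genes of liver and BAT and at the bottom for most of WAT.

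The last question was whether chains that share a molecule or a fibril varied together over the mice. Deviations from the group mean of the 14 mice were correlated for 3 pairs in 3 tissues, 9 relations, with p from 100000 permutations within groups and Benjamini-Hochberg adjustment over the 9. *Col4a1* and *Col4a2*, the 2 chains of one trimer, varied together in every tissue. Pearson's r was 0.86 in liver (permutation p = 5e-05, adjusted 0.000112), 0.94 in BAT (p = 2e-05, adjusted 6e-05, by permutation) and 0.96 in WAT (p = 2e-05, adjusted 6e-05, by permutation), and Spearman's rho was 0.82, 0.93 and 0.94 (adjusted permutation p = 0.00101, 9e-05 and 9e-05). Without the 2 mice farthest from the median of *Col4a1*, r was 0.82, 0.86 and 0.87. Within the VAAM mice r was 0.90, 0.94 and 0.96, and within the water mice 0.85, 0.94 and 0.98. After quantile normalisation it was 0.93 in BAT and 0.98 in WAT but 0.40 in liver.

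**Figure D5:**
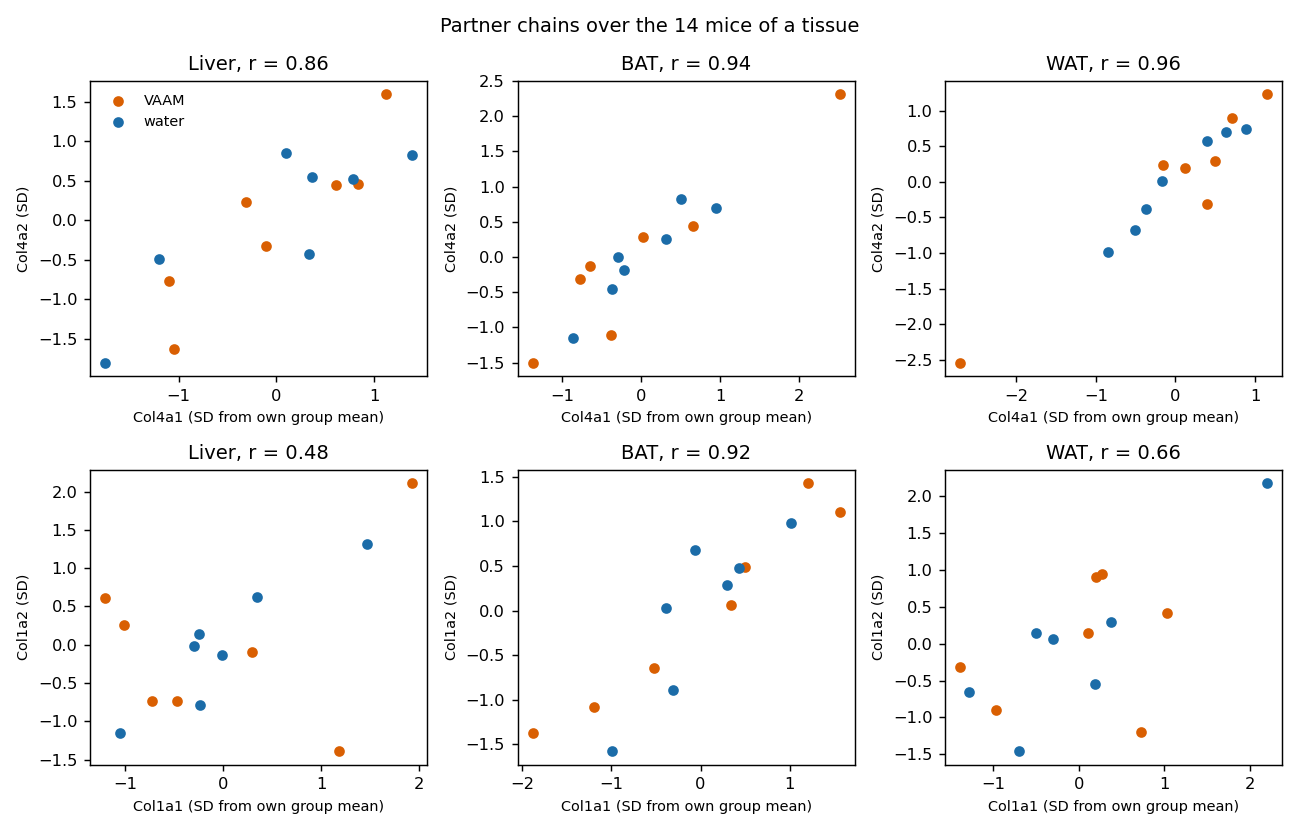
Deviation of each mouse from its own group mean, in within-group SD, for *Col4a2* against *Col4a1* (upper row) and *Col1a2* against *Col1a1* (lower row) in liver, BAT and WAT, VAAM mice in orange and water mice in blue. The points of *Col4a1* and *Col4a2* lie along a line in every tissue (r = 0.86, 0.94 and 0.96), and r for *Col1a1* and *Col1a2* was 0.48 in liver, 0.92 in BAT and 0.66 in WAT.

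The type I pair *Col1a1* and *Col1a2* had r = 0.92 in BAT (permutation p = 1e-05, the smallest that the permutations can give, adjusted 6e-05; rho 0.92, adjusted 0.00012) and 0.91 without the 2 farthest mice. In WAT it had r = 0.66 (permutation p = 0.0246, adjusted 0.0369; rho 0.60, adjusted 0.0502), and r was 0.42 without the 2 farthest mice, so the pooled value rests on those mice. It was 0.82 without VAAM mouse 1, 0.84 after quantile normalisation, 0.30 within the VAAM mice and 0.86 within the water mice. In liver it had r = 0.48 (permutation p = 0.117, adjusted 0.133; rho 0.29, adjusted 0.343). *Col1a1* with *Col3a1*, which meet in the same fibrils, had r = 0.84 in BAT (permutation p = 0.00021, adjusted 0.000378; rho 0.82, adjusted 0.00239), 0.47 in liver (permutation p = 0.118, adjusted 0.133; rho 0.33, adjusted 0.331) and 0.19 in WAT (permutation p = 0.511, adjusted 0.511; rho 0.38, adjusted 0.235). Without VAAM mouse 1, r of this pair in WAT was 0.70. In BAT, quantile normalisation brought r to 0.51 for *Col1a1* with *Col1a2* and to -0.15 for *Col1a1* with *Col3a1*, so both depended on the scale. Among the 14 collagen genes above the 75th level percentile in BAT, the median r of 91 pairs was 0.68, and 32 pairs were over 0.8, against a median of 0.32 over 136 pairs of 17 genes in WAT and 0.45 over 21 pairs of 7 genes in liver. After quantile normalisation the median was 0.93 in WAT. Before that scaling, pairs of a fibrillar with a basement membrane chain had a median r of 0.45 in liver, 0.65 in BAT and 0.25 in WAT. The highest of these pairs had r of 0.60, 0.86 and 0.91. For pairs of fibrillar chains the median was 0.41, 0.60 and 0.25, so covariation was not particular to chains that share a fibril. No r was computed over other genes of this brightness. These genes share arrays, and the values are descriptions.

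Promoter sequence is shown for *Col4a1* and *Col4a2*, which varied together, and for *Col1a2* and *Col3a1*, a pair not among the relations tested. The windows hold 300 bases from RefSeq (GRCm38.p6), 5′ to 3′ on the strand of the gene. They hold 250 bases before and 50 after the annotated gene start for *Col1a2*, *Col3a1* and *Col4a2*, and 187 before and 113 after it for *Col4a1*. Capitals mark a CCAAT box (CCAAT or ATTGG), a GC box (GGGCGG or CCGCCC) or a TATA box (TATAAA or TTTATA), on either strand. *Col4a1* (chr8:11312777-11313076, minus strand) and *Col4a2* (chr8:11312555-11312854, plus strand) lie head to head, and their windows share 78 bases on opposite strands. *Col1a2* (chr6:4505368-4505667, plus strand) and *Col3a1* (chr1:45311288-45311587, plus strand) lie on separate chromosomes.
Col4a1: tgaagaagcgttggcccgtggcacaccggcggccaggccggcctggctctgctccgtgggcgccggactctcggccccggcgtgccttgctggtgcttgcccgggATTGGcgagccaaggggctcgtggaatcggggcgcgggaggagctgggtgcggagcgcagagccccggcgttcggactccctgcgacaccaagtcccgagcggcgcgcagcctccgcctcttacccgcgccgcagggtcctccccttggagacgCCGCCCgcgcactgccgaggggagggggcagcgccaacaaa
Col4a2: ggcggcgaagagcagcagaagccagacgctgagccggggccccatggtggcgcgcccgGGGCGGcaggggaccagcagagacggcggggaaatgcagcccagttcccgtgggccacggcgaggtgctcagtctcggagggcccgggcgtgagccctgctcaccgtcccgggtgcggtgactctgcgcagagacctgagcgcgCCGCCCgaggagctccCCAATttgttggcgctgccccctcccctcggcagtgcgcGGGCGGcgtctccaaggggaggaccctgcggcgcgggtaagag
Col1a2: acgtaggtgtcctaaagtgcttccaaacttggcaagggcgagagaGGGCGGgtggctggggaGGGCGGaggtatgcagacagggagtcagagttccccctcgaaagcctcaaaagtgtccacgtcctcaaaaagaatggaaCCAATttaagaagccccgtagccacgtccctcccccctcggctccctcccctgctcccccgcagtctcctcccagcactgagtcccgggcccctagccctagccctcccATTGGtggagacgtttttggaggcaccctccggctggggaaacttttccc
Col3a1: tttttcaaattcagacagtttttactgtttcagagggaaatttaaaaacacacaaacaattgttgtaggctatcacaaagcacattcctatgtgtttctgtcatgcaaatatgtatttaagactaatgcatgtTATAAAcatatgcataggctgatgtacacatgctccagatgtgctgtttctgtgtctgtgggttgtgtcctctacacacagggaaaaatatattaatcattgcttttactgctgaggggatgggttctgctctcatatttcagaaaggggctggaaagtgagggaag

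The type IV windows were rich in G and C, at 74.0% for *Col4a1* and 73.7% for *Col4a2*, and each held 1 CCAAT box, with 1 and 3 GC boxes. The GC box of *Col4a1* lies in the 78 shared bases. It is 1 of the 3 of *Col4a2*, read on the other strand, and is counted in both windows. *Col1a2* held 2 CCAAT boxes and 2 GC boxes at 61.0% G and C, and *Col3a1*, at 37.7%, held 1 TATA box alone. Windows were found for 33 of the 42 genes, 36 windows in all, and not for *Col1a1*, *Col2a1*, *Col4a3*, *Col5a2*, *Col9a3*, *Col12a1*, *Col14a1*, *Col22a1* and *Col26a1*. A GC box stood in 22 of the 36 collagen windows (61.1%), against 35.7% of 32851 windows of all genes, a CCAAT box in 13 (36.1%, against 37.4%) and a TATA box in 5 (13.9%, against 13.6%). A match of letters is a description of the window and not of a bound site. Neighbouring collagen genes in the RefSeq annotation were also *Col3a1* with *Col5a2*, *Col4a3* with *Col4a4*, *Col4a5* with *Col4a6*, *Col6a1* with *Col6a2*, *Col6a4* with *Col6a5* and *Col9a1* with *Col19a1*.

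Genes that process, bind or break down collagen were read from lists of 154 genes with markers included, of which 145 had a probe set. No gene of the 6 pathway lists passed limma at an adjusted p of 0.05. In BAT, 16 of 19 procollagen modifying enzymes and chaperones had a higher mean with VAAM, with a median of 0.57 SD against 0.02 over all genes, and 2 were higher at an unadjusted p under 0.05, against 2.16% of all probe sets. The highest was the prolyl isomerase *Fkbp14* (+1.69 SD, exact p = 0.00583) and the lowest *P3h1*, a prolyl 3-hydroxylase (-0.15, exact p = 0.784). The score of this list ranged from -0.40 to 1.65 in VAAM mice, with VAAM mouse 3 at the top, against -0.61 to -0.05 in water mice. The median of the list was 0.47 without VAAM mice 3 and 5 and -0.20 after quantile normalisation, where that of all genes was -0.21. All 10 measured genes for cleavage of propeptides and crosslinking had a higher mean in BAT, from +0.09 SD for *Tll2* to +0.70 for *Bmp1*, the procollagen C-proteinase (exact p = 0.212), with a median of 0.35, but 5 of the 10 did without VAAM mice 3 and 5 (median -0.01) and 3 after quantile normalisation (median -0.16). In WAT 9 of the 10 had a lower mean, with a median of -0.62, or -0.43 without VAAM mouse 1. Their score in WAT was -1.62 in that mouse, against -0.44 to 0.87 in water mice, and the same array was lowest in the adipocyte, endothelial and fibroblast scores, whose part was not tested. For collagen breakdown, the median was 0.37 in BAT (0.08 without VAAM mice 3 and 5), where *Mmp1a*, a collagenase, was highest (+1.46, exact p = 0.0157), -0.01 in liver and -0.13 in WAT. In liver the highest was *Mmp14*, a membrane-bound collagenase (+1.92, exact p = 0.00117), and 3 of the 17 genes were higher there at an unadjusted p under 0.05, against 4.17% of all probe sets.

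The collagen receptors had medians of -0.02 in liver, 0.55 in BAT (0.34 without VAAM mice 3 and 5) and -0.21 in WAT (0.02 without VAAM mouse 1), with the platelet receptor *Gp6* highest in BAT (+0.78) and in WAT (+0.94) and the integrin chain *Itga2* lowest in liver (-1.24, exact p = 0.0408). Proteins that bind fibrils, such as decorin and lumican, had medians of 0.48, 0.52 and -0.39. In the most variable 10% were 7 of the 13 in liver, 10 in BAT and 9 in WAT, against 12.2%, 10.6% and 13.5% of all genes. Without the arrays that stood apart the medians were 0.19 in BAT and -0.27 in WAT. Rank products called 6 of them higher and 1 lower in BAT (2.16% and 2.25% of all probe sets), 4 higher in liver (2.71%) and 3 lower in WAT (1.47%), and nearly all calls of that method lay in the most variable 10%. *Dcn*, *Lum* and *Dpt* of this list are also among the fibroblast markers. The other basement membrane proteins had medians of 0.12, 0.31 and -0.58. In BAT they ran from the laminin chain *Lama5* (-1.33, exact p = 0.0291) to *Lamb1* (+1.47, exact p = 0.0221). In WAT all 10 had a lower mean with VAAM, down to -0.79 for the proteoglycan *Hspg2* (exact p = 0.164), and their score was -2.05 in VAAM mouse 1, against -0.49 to 0.69 in water mice. Without that mouse 7 of the 10 were lower (median -0.36), and in BAT the median was 0.04 without VAAM mice 3 and 5.

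Probe sets of 1 gene did not always share the sign of the difference. Of 27 genes with 2 to 4 probe sets, the probe sets differed in sign for 14 in liver, 10 in BAT and 11 in WAT. *Col5a3*, *Col9a3*, *Col12a1* and *Col26a1* did so in every tissue, and *Col1a1* in liver and WAT.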

How the data were processed

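RNA of liver, brown (BAT) and white adipose tissue (WAT) from 7 VAAM and 7 water mice per tissue was hybridised to Affymetrix whole-genome mouse arrays. The deposited table holds log2 values, as far as its base could be told, that the authors summarised per probe set with distribution free weighting (DFW), by their medians each tissue apart, in R (version 2.7.2 in the submitters' processing notes). DFW shrinks deviations between arrays by an amount that differs between probe sets, so sizes of differences are comparable only in units of SD. Arrays of the other amino acid mixture of the study, which copies casein, were not analysed here. Of 45101 probe sets 64 controls were left out. Of the 45037 left, 34945 named 1 gene, 932 several and 9160 none in the platform annotation.

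A gene was represented by its brightest single-gene probe set in the tissue, also for cell type markers. For comparisons of gene levels between tissues other than those of markers, it was represented by 1 probe set in all of them. VAAM was compared with water in each tissue with limma 3.58.1 (R 4.3.3) over all probe sets with Benjamini-Hochberg adjustment at 0.05, with rank products (49 array pairs, 50 permutations, 20 where an array was left out, false discovery rate 0.05), and for single genes with an exact permutation test in Python 3.11.15. An array was said to stand apart where any of its leading 3 principal component scores exceeded 2.2 SD. Scripts were tested on simulated data, with 100 changes of 3 SD and 100 of 2 SD in each tissue. There limma recovered 62% of the 3 SD changes in liver, 55% in BAT and 51% in WAT. It recovered 9% of the 2 SD changes in each, so the lack of limma calls does not show that no chain changed. Rank products on the unit SD scale made 151, 148 and 174 false calls in liver, BAT and WAT. Calls on that scale were therefore not held to the stated false discovery rate. Named genes were 8 fixed chains and the 3 highest and 3 lowest differences in each tissue. The planned choice by smallest p between tissues was replaced by the largest shifts in percentile, as nearly all probe sets passed. Alternatives were quantile normalisation, the probe sets above the median, unit SD scaling, the mean of a gene's probe sets, a block for the label number, and leaving out each array or those that stood apart. For covariation, spread and the difference between tissues, alternatives were chosen after seeing the data. The chains and lists were chosen with earlier results of these data known. The depth of arrays has no count. The p-values of limma and of the permutation tests are set against the spread between mice. The false discovery rate of rank products is not, as it comes from permuting values among probe sets within each array.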

Additional observations from a re-analysis of the deposited data

Results flagged for a closer look

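In 9 of 74 groups of 7 mice that were examined for the named chains, 1 mouse lay far from the rest, by the gap to its nearest neighbour as a share of the group's range. Chance gives about 1 in 20 such groups, and the chains of a tissue share their mice, so these are not independent. In WAT, VAAM mouse 1 was the lowest for *Col3a1* (share 0.82, at -3.05 SD from the median of the other VAAM mice), *Col4a1* (0.66, at -3.14) and *Col4a2* (0.593, at -2.81), and its adipocyte, endothelial and fibroblast scores were the lowest of that tissue. VAAM mouse 2 was the lowest for *Col27a1* in WAT (0.572). In BAT, VAAM mouse 3 was the highest for *Col15a1* (0.594, at 2.98 SD) and *Col18a1* (0.674, at 3.11). In the same tissue VAAM mouse 4 was the lowest for *Col9a2* (0.706) and *Col9a3* (0.658), and water mouse 7 was the lowest water mouse for *Col9a2* (0.623).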

How the results depend on the processing

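No collagen probe set passed limma between VAAM and water under any alternative run. Rank products on the unit SD scale called 1 collagen probe set in liver, 2 in BAT and 0 in WAT. After quantile normalisation they called 5 in BAT, where 440 of all probe sets were called higher and 427 lower. Without the arrays that stood apart they called 5 in BAT (517 and 1021 of all). Among the 22518 probe sets above the median they called 2 in WAT (407 and 312 of all). Leaving out 1 array gave 2 to 5 in liver, 8 to 17 in BAT and 3 to 9 in WAT. Calls over all probe sets moved too, from 888 to 1319 higher and 402 to 761 lower in liver. They ran from 587 to 1155 and 761 to 1119 in BAT, and 583 to 1136 and 353 to 799 in WAT. With 1 array left out, the median difference of the collagen genes ran from -0.29 to 0.03 SD in liver, 0.04 to 0.42 in BAT and -0.32 to -0.03 in WAT. After quantile normalisation it was -0.20 in liver, -0.07 in BAT and -0.39 in WAT, against -0.32, -0.21 and -0.47 over all genes. With the arrays that stood apart left out or after quantile normalisation, alternatives chosen after seeing the data, the medians of the pathway lists in BAT ran from -0.01 to 0.47 and from -0.24 to 0.12. Between tissues, all 82 collagen probe sets passed whichever array was left out. Among probe sets above the median 41 passed between liver and WAT, 40 between BAT and WAT and 39 between liver and BAT. That filter drops the dimmer probe sets, so fewer than 82 were tested. Of the 22518 probe sets kept, 7146 passed as higher and 15350 as lower in liver against WAT. The numbers were 6978 and 15509 in BAT against WAT, and 9678 and 12828 in liver against BAT. Leaving out arrays that stood apart could not be run between tissues, because no water array did.

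None of the single chains below had passed the adjusted test. Quantile normalisation turned the sign of *Col4a1* (-0.25 SD) and *Col15a1* (0.06) in liver, of *Col1a1* (-0.17), *Col1a2* (-0.49), *Col13a1* (-0.83), *Col25a1* (-0.65) and *Col27a1* (-0.46) in WAT, and of *Col4a2* (-0.07), *Col7a1* (-0.06), *Col9a3* (-0.06), *Col15a1* (-0.22), *Col18a1* (-0.13) and *Col19a1* (-0.16) in BAT. Without the arrays that stood apart, *Col1a1* was at -0.03 in WAT, and *Col4a2* at -0.20, *Col6a1* at -0.01, *Col15a1* at -0.06 and *Col18a1* at -0.58 in BAT. The mean of its probe sets put *Col1a1* at 0.13 in liver and -0.01 in WAT. Leaving out 1 array turned *Col6a1* (lowest -0.25, highest 0.46) and *Col18a1* (-0.04 to 0.61) in liver, *Col1a1* in WAT (-0.13 to 0.60), and *Col4a1* (-0.09 to 0.62), *Col4a2* (-0.19 to 0.54), *Col15a1* (-0.17 to 0.54) and *Col18a1* (-0.50 to 0.34) in BAT. The cause was not tested.

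For *Col1a1* with *Col3a1*, r after quantile normalisation was 0.71 in liver, -0.15 in BAT and 0.79 in WAT, and 0.70 in WAT without VAAM mouse 1. For *Col1a1* with *Col1a2* it was 0.51 in BAT and 0.84 in WAT after quantile normalisation, and 0.82 in WAT without VAAM mouse 1. For *Col4a1* with *Col4a2* it was 0.40 in liver and 0.98 in WAT after quantile normalisation, and 0.88 in BAT and 0.90 in WAT without the arrays that stood apart.

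No source used here says that the numbers in the labels pair VAAM with water mice. Same-numbered VAAM and water arrays correlated at -0.13 to 0.14 in liver, -0.19 to 0.17 in BAT and -0.08 to 0.48 in WAT, and 1, 3 and 3 of 7 arrays correlated best with their own number. Tissues came from the same mice, but whether 1 number marks 1 mouse in every tissue is not stated. Same-numbered water arrays correlated at -0.02 to 0.11 between liver and WAT, -0.02 to 0.15 between BAT and WAT and 0.08 to 0.16 between liver and BAT, and 4, 5 and 5 of 7 correlated best with their own number. With the number as a replicate block, limma called 0 collagen probe sets in each tissue and 82 between tissues, as without it.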
